A study of Homo sapiens with 12 samples.

Results

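Small nucleolar RNAs (snoRNAs) and the related small Cajal body RNAs (scaRNAs) were followed in total RNA of VCaP cells after knockdown of FOXA1. Members were chosen by level alone: they are the snoRNA genes of the deposited count tables with at least 1 CPM in the mean of the 6 VCaP libraries, where CPM is the count of a gene per 1000000 counts of its library. Of 60106 genes in the tables, 1458 were typed as snoRNA and 187 of these met the rule. By symbol, 78 of 389 SNORD genes, 89 of 398 SNORA genes, 16 of 49 SCARNA genes and 4 of 622 other snoRNA genes were members. The rule used the level in VCaP, so the levels themselves are given as a description. The members just inside the threshold were a SNORA81 copy at 1.018 CPM, SNORD43 at 1.022 CPM and SNORA60 at 1.034 CPM. The genes just outside were SNORD58A at 0.9788 CPM, SNORD101 at 0.9559 CPM and SNORD11 at 0.9536 CPM.

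VCaP and PC3 are established human prostate cancer cell lines. VCaP cells in DMEM received 40 nM of a non-targeting siRNA (NSI) or of an siRNA against FOXA1 (siFOXA1), and total RNA libraries were made after 72 hours, with 3 replicates per group. PC3 cells in RPMI received 20 nM of the same kinds of siRNA for 72 hours, with 3 replicates per group, and their libraries were made from polyadenylated RNA. Each line is a single cell line, and the cell line cannot be told apart from siRNA dose, medium and kit. The labels do not say whether replicates came from separate cultures, so p-values measure the spread between these samples, which may be technical. In bulk RNA, fewer cells of a kind and less RNA per cell cannot be told apart.

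snoRNAs are short nuclear RNAs that guide the chemical modification of other RNAs. C/D box snoRNAs, the SNORD genes, guide 2'-O-methylation of ribosomal RNA with the methyltransferase fibrillarin, and H/ACA box snoRNAs, the SNORA genes, guide pseudouridylation with dyskerin. scaRNAs do the same for spliceosomal RNAs in Cajal bodies. In human cells most of them lie in introns of a host gene and are released from the spliced intron, so the mature RNA and the host messenger RNA come from the same transcript but are degraded separately. The U3 RNA (SNORD3 genes) has its own promoter and is needed for cleavage of the ribosomal RNA precursor.

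The letters of the 2 main classes were read from the GRCh37 genome at the coordinates of the tables, on the sense strand only. The C box, searched as TGATGA, was in 59 of 78 SNORD members (75.64%) and in 1 of 78 windows of the same length directly downstream (1.282%). The D box, searched as CTGA, was in 75 of 78 SNORD members (96.15%), against 31 of 78 downstream windows (39.74%). Among SNORD genes that were no members, 191 of 311 (61.41%) held TGATGA. An ACA in the last 6 bases was in 78 of 89 SNORA members (87.64%), in 5 of 89 downstream windows (5.618%) and in 204 of 309 SNORA genes that were no members (66.02%). The 2 class labels therefore went with different letters, and only 4 of 78 SNORD members had an ACA at that place. The median length was 91 bases in SNORD members, 134 bases in SNORA members and 141 bases in scaRNA members.

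Sequences are shown for members whose values carry the results below: the SNORD88 copies, which had the largest falls, 2 further SNORD members called in opposite directions, and 1 scaRNA and 2 SNORA members. They run 5′ to 3′ on the sense strand of GRCh37, all on the minus strand except SNORA28 and SCARNA22. Capitals mark TGATGA and the last CTGA in SNORD members and the ACA near the 3′ end in the others.
SNORD88A: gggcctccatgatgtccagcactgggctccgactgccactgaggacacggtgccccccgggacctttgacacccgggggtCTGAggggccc
SNORD88B: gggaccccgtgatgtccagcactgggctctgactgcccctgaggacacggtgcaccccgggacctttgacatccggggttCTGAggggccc
SNORD88C: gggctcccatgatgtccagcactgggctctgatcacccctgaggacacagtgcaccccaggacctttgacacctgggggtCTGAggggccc
SNORD14B: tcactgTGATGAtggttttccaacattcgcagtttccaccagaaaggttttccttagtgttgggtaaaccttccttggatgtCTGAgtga
SNORD96A: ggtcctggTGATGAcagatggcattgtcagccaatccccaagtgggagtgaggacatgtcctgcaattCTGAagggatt
SNORA28: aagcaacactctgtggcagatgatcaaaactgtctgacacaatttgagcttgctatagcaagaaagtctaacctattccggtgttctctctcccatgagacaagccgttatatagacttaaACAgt
SNORA14B: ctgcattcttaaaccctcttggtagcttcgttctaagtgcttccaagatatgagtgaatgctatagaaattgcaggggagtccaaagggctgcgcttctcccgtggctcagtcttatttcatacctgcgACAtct
SCARNA22: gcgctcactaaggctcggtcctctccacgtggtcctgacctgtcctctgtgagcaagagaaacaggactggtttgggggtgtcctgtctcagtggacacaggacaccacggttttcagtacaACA
The SNORD88 copies lie on chromosome 19 at 51302699 to 51302789 (SNORD88A), 51302289 to 51302379 (SNORD88B) and 51305585 to 51305675 (SNORD88C). Over 91 bases, SNORD88A and SNORD88B shared 83 bases (91.2%), and SNORD88C shared 80 bases (87.9%) with each of them. None of the 3 held an unbroken TGATGA, and each had its last CTGA at base 81. SNORD14B is on chromosome 11 at 17097326 to 17097415, in an intron of RPS13. SNORD96A is on chromosome 5 at 180668814 to 180668892, in an intron of RACK1. SNORA28 is on chromosome 14 at 103804186 to 103804311 in EIF5, SNORA14B on chromosome 1 at 235291118 to 235291252 in TOMM20, and SCARNA22 on chromosome 4 at 1976363 to 1976487 in NSD2.

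The siRNA target, FOXA1, a pioneer transcription factor of prostate luminal cells, stood at 457, 467 and 543 CPM in the NSI libraries of VCaP and at 85.1, 73.5 and 83.0 CPM in the siFOXA1 libraries. It fell by 2.60 on the log2 scale (SE 0.09), the groups did not overlap, and the exact two-sided permutation p on CPM was 0.1, the smallest that 3 against 3 samples can give. The VCaP libraries held 48187047 to 59839211 counts and no member had fewer than 38 counts in any VCaP library. KLK2, a luminal marker, stood at 1624 ± 189 CPM in NSI and 782 ± 128 CPM in siFOXA1 (SD, n = 3 each), and KLK2, TMPRSS2 and HOXB13 were among the 4 of 7 luminal markers called lower after knockdown. Summed fibroblast markers ranged from 10.7 to 17.99 CPM in NSI and from 1.31 to 5.24 CPM in siFOXA1, with 1 of 4, LUM, called lower. Summed leukocyte markers ranged from 0.729 to 0.904 CPM in NSI and from 2.28 to 2.99 CPM in siFOXA1, with CD14 called higher. Of the endothelial markers VWF was called lower (summed levels 3.92 to 4.56 against 1.69 to 2.02 CPM), and the part of these lists in any result was not tested.

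In the SNORA class, replicate 3 was the highest library of each VCaP group, and NSI replicate 2 was the lowest library and deviated most. The median SNORA member deviated from its own mean over the 6 libraries by -0.13, -0.31 and 0.25 on the log2 scale in NSI replicates 1, 2 and 3, and by -0.06, 0.02 and 0.27 in siFOXA1 replicates 1, 2 and 3. For SNORD members the same deviations lay between -0.09 and 0.10, and over all genes tested they were within 0.02 of 0. The main counts of called members are therefore given with all 6 libraries and, as an alternative added after the data were seen, without replicate 3 of both groups. That choice rests on the values of these same members, and the alternative keeps NSI replicate 2.

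With all 6 VCaP libraries, 28 of 187 members (15.0%) passed an adjusted p of 0.05 for siFOXA1 against NSI, 15 higher and 13 lower. Over all 22925 genes tested, 45.8% passed, 22.5% higher and 23.3% lower. An unadjusted p under 0.05 was reached by 42 members. For 9 members the mean reached 1 CPM in 1 group only (5 below it in NSI, 4 below it in siFOXA1), and 3 of these were called: SNORA60, SNORD12C and snoZ6, each high in the group that carried it past the threshold. Of the other 178 members 25 were called (14.0%). No member changed by 1 or more on the log2 scale, against 12.7% of all genes tested, and the members' log2 fold changes ran from -0.96 to 0.81. The members' median log2 fold change was 0.12 and that of all genes was 0.02, while the median SE was 0.16 for members and 0.13 for all genes. Among genes of similar level, 16.03% of the members and 44.95% of all genes with a mean of 1 to 10 CPM were called. Of all genes tested that met the members' own minimum of 1 CPM, 52.9% were called. Without replicate 3 of both groups, 63 of 187 members (33.7%) and 44.7% of all genes tested were called, so the shortfall of the members against all genes was smaller in those 4 libraries. With no filter on low counts, 20.9% of the members and 25.7% of 44261 genes tested were called, and in the fit of all 12 libraries 6.42% of the members and 8531 of 30425 genes were.

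Of the 78 SNORD members 6 were called higher and 9 lower (19.2% called), with a median of 0.03 and a positive value in 41. Of the 89 SNORA members 7 were called higher and 2 lower (10.1%), with a median of 0.16 and a positive value in 65. Of the 16 scaRNA members 2 were called higher and none lower (12.5%, 3 at an unadjusted p under 0.05, and 2 higher and 0 lower by DESeq2), with a median of 0.30 and a positive value in 13. When single libraries were left out, the medians ran from -0.01 to 0.09 for SNORD, from 0.03 (without NSI replicate 2) to 0.37 (without NSI replicate 3) for SNORA, and from 0.15 (without siFOXA1 replicate 3) to 0.45 (without NSI replicate 3) for scaRNA members. Without replicate 3 of both groups, a choice made on these members' values that keeps NSI replicate 2, 44.7% of all genes tested were called. The SNORD calls there were 12 higher and 8 lower, the SNORA calls 33 higher and 3 lower, and the scaRNA calls 6 higher and 0 lower. Single libraries moved these counts too: 31 SNORA members were called higher without NSI replicate 3, 1 without NSI replicate 1 and 2 each without NSI replicate 2 or siFOXA1 replicate 3, where 42.0%, 38.7%, 42.3% and 42.0% of all genes tested were called. Leaving out NSI replicate 3 called no SNORA member lower, against 4 each without NSI replicate 2 or siFOXA1 replicate 3 and 1 each without siFOXA1 replicate 1 or 2. The count of SNORD members called higher was 2 without NSI replicate 1, 3 each without NSI replicate 2 or siFOXA1 replicate 1, and 9 without NSI replicate 3. The scaRNA count was 1 each without NSI replicate 1 or 2 and 4 without NSI replicate 3. The groups of 3 libraries did not overlap in 37.2% of SNORD members (13 higher, 16 lower), in 7.87% of SNORA members (6 higher, 1 lower) and in 4 of 16 scaRNA members, against 55.9% of all genes tested (27.9% higher and 28% lower). All 15 SNORD calls fell among the 63 SNORD members shorter than 100 bases, and the 15 longer ones had no call (no unadjusted p under 0.05 either, and no call by DESeq2). Without replicate 3 of both groups, 4 of the 15 longer ones were called higher, and 8 of the 63 shorter ones were called higher and 8 lower. The difference between the classes was not tested.

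**Figure D1:**
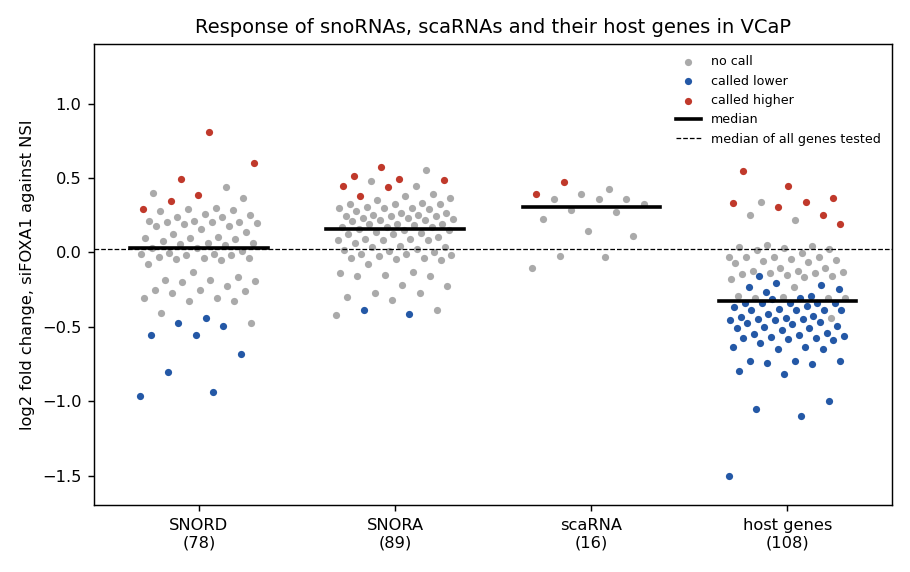
Log2 fold change (siFOXA1 against NSI, vertical axis) of each SNORD, SNORA and scaRNA member and of each tested host gene in VCaP, with 1 point per gene, the class median as a bar and the median of all genes tested as a dashed line. Most of the members lie near 0 with few calls, while the host genes lie lower, with a median of -0.33.

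The largest falls were those of the SNORD88 copies, C/D box RNAs that share 1 host gene. SNORD88B had 6.04, 4.72 and 5.71 CPM (NSI) against 2.62, 3.24 and 2.59 CPM in siFOXA1, so every NSI library was above every siFOXA1 library. It fell by 0.96 on the log2 scale (SE 0.14, adjusted p 0.000393). SNORD88A had 2.48, 1.79 and 2.36 CPM in NSI against 0.952, 1.35 and 1.16 CPM, a fall by 0.94 (SE 0.18, adjusted p 0.00254) on 48 to 136.5 counts per library. SNORD88C had 7.77, 5.49 and 8.23 CPM against 3.71, 4.17 and 4.47 CPM, a fall by 0.80 (SE 0.16, adjusted p 0.00254). The groups did not overlap for any of the 3. Their host is named CTD-2568A17.3 in the tables, a protein-coding gene there, at 51300962 to 51307974 on the minus strand of chromosome 19, and its gene identifier carries the symbol C19orf48P in a later annotation. The host had 607, 510 and 666 CPM in the NSI libraries against 214, 204 and 213 CPM, a fall by 1.50 (SE 0.10, adjusted p 3.48e-06). The host therefore fell further than any of its 3 snoRNAs, whose summed level in siFOXA1 was 0.544 of that in NSI. Because the copies share up to 91.2% of their bases and fragments mapping to several places were divided, the 3 values are not independent. SNORD88A and SNORD88B are named here through their host.

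**Figure D2:**
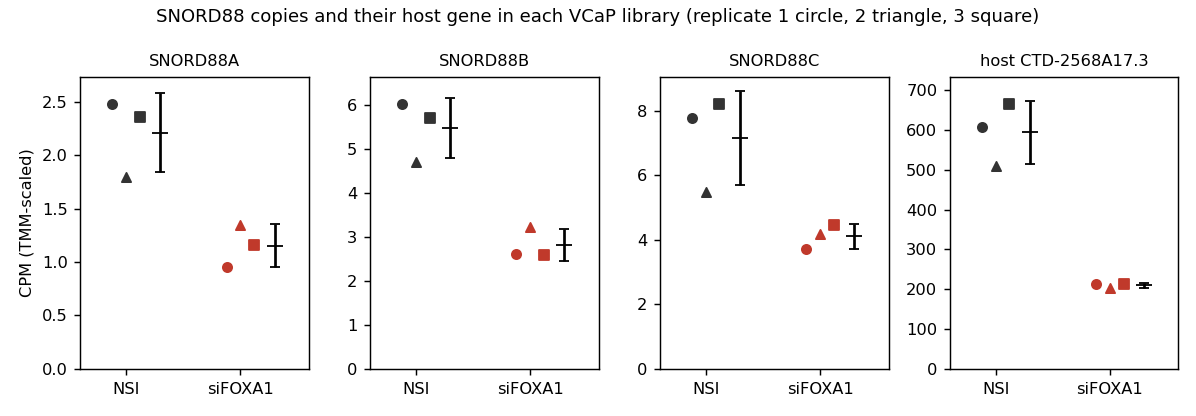
CPM scaled by TMM (vertical axis, from 0) of SNORD88A, SNORD88B, SNORD88C and their host gene in each of the 6 VCaP libraries, with the mean and SD of 3 replicates beside the points. In every panel all 3 siFOXA1 libraries lie below all 3 NSI libraries.

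Of the other 6 SNORD members called lower, 5 lay in ribosomal protein genes or RACK1 and 1 in the non-coding gene ZFAS1. SNORD58B, in RPL17-C18orf32, had 7.97, 8.60 and 11.4 CPM in NSI against 6.07, 6.18 and 6.83 CPM in siFOXA1, a fall by 0.55 (SE 0.14, adjusted p 0.00905). SNORD96A, in RACK1, whose product sits on the small ribosomal subunit, had 8.85, 7.37 and 8.30 CPM against 5.87, 6.0 and 6.2 CPM, a fall by 0.44 (SE 0.10, adjusted p 0.00483). Neither pair of groups overlapped, and NSI replicate 3 was the highest library for SNORD58B, which overlaps an exon of RPL17 on its strand, so that shared fragments were divided. Outside the rule for named members, and named after their values were seen, SNORD12C fell by 0.68 (ZFAS1 host), SNORD4A by 0.55 (RPL23A), SNORD36A by 0.50 (RPL7A) and SNORD35B by 0.48, with adjusted p from 0.00992 to 0.0167. The hosts named here were lower as well, by log2 changes of -0.47 for ZFAS1, -0.73 for RPL23A and -0.75 for RPL7A.

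SNORD members that rose did so by at most 0.81 on the log2 scale. SNORD2, in EIF4A2, a translation initiation factor gene, had 9.72, 10.2 and 11.6 CPM in NSI against 12.5, 13.1 and 13.0 CPM in siFOXA1, a rise of 0.29 (SE 0.09, adjusted p 0.0221), while EIF4A2 itself was at 0.02. SNORD116-24, a brain-enriched orphan C/D RNA of the Prader-Willi region, had 11.8, 12.9 and 11.7 CPM against 18.7, 14.9 and 14.1 CPM, a rise of 0.39 (SE 0.11, adjusted p 0.0176). SNORD2 lost its call in 5 of 14 refits and SNORD116-24 in 4 of 14. Among members under the level set for naming, and named after their values were seen, SNORD14B had 2.00, 1.83 and 1.98 CPM against 2.78, 2.62 and 2.78 CPM, a rise of 0.49 (SE 0.12, adjusted p 0.00712), and the groups did not overlap. Its host RPS13, a ribosomal protein gene, moved the other way, at -0.36 with an adjusted p of 0.0300. SNORD19B copy 1 (of 2 members with that symbol), in GNL3, had 1.35, 1.09 and 1.01 CPM against 2.42, 1.99 and 1.64 CPM, the largest rise among the members at 0.81 (SE 0.19, adjusted p 0.00647), on 55 to 122 counts per library, while GNL3 was at -0.38. SNORD33, in RPL13A, rose by 0.60 (adjusted p 0.0382) with overlapping groups, and RPL13A was at -0.65.

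Of the 7 SNORA members called higher, 5 lay in a host gene, each in a different one. For SNORA25 and SNORA32 no host was found in the annotation used. SNORA74B, in ATP6V0E1, a proton pump subunit gene, had 27.4, 25.4 and 32.6 CPM in NSI against 33.0, 35.8 and 47.0 CPM in siFOXA1, a rise of 0.44 (SE 0.14, adjusted p 0.0250), and its host rose by 0.37. SNORA25 had 3.83, 3.66 and 5.35 CPM against 5.73, 5.44 and 6.33 CPM, and SNORA32 had 5.16, 5.28 and 6.25 CPM against 7.38, 7.23 and 7.11 CPM. SNORA25 rose by 0.44 (SE 0.15, adjusted p 0.0373) and SNORA32 by 0.38 (SE 0.10, adjusted p 0.0131), and both lie in a chromosome 11 group of 7 members. The other called rises, below the naming level, were SNORA14B at 0.57 (adjusted p 0.00649), SNORA60 at 0.51 (adjusted p 0.0445), SNORA40 copy 2 at 0.49 (adjusted p 0.0347) and SNORA37 at 0.49 (adjusted p 0.0496). SNORA28, in the translation factor gene EIF5, had 21.4, 18 and 21.9 CPM against 17.7, 16.1 and 13.1 CPM, a fall by 0.39 (SE 0.12, adjusted p 0.0230), with EIF5 at -0.03. SNORA21 copy 2, in RPL23, fell by 0.41 (adjusted p 0.0488) with overlapping groups. Of these, SNORA14B kept its call in all 14 refits. The call was lost in 9 refits for SNORA60, 7 for SNORA37, 6 for SNORA21 copy 2, 5 each for SNORA25, SNORA28 and SNORA40 copy 2, 4 for SNORA74B and 1 for SNORA32.

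The 2 called scaRNA members both rose. SCARNA22, in NSD2, a histone methyltransferase gene, had 15.7, 17.5 and 20.2 CPM in NSI against 26.6, 23.8 and 23.7 CPM in siFOXA1, a rise of 0.47 (SE 0.10, adjusted p 0.00317) without overlap, while NSD2 fell by 0.34 (adjusted p 0.00154). SCARNA13, in the non-coding host SNHG10, had 34.6, 31.4 and 40.5 CPM against 41.0, 43.9 and 54.9 CPM, a rise of 0.39 (SE 0.12, adjusted p 0.0251), and SNHG10 was at 0.03. SCARNA13 lost its call in 4 of 14 refits (adjusted p up to 0.169), and SCARNA22 in none of them. SCARNA5 (-0.03) and SCARNA21 (0.14), the other abundant scaRNAs per length, had no call. Telomerase RNA (TERC), an H/ACA RNA typed as lincRNA in the tables and so no member, had 20.5, 23.8 and 24.0 CPM against 36.4, 34.4 and 40.9 CPM. TERC rose by 0.71 (SE 0.09, adjusted p 0.000139). SCARNA2, typed as lincRNA too, stood at 106 ± 12.2 against 111 ± 23.4 CPM (SD, n = 3 each) and had no call. Outside the 3 classes, a U3-named gene in TEX14 was called lower at -0.62 (adjusted p 0.00354) and snoZ6 in TRPM2 at -0.42 (adjusted p 0.0483), both named after their values were seen.

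Most of the members' signal came from a few RNAs, and none of those named here was called with all 6 libraries. The 4 SNORD3 copies made up 65.7% of the members' CPM in NSI, with summed levels of 9259, 6825 and 9178 CPM (NSI) against 7674, 8458 and 5676 CPM in siFOXA1. The groups overlapped, and the lowest library was siFOXA1 replicate 3. SNORD3A, the best known U3 gene, stood at 2352 ± 336 CPM in NSI and 2066 ± 388 CPM in siFOXA1 (SD, n = 3 each), a difference of -0.19 (SE 0.15, adjusted p 0.348). Per annotated length, the highest levels were 7939 CPM per kilobase in SNORA73B, 5469 in SNORD3C, 3164 in SNORD3A, 2408 in SNORD3B-2 and 1866 in SNORA74A. This order depends on the annotated length, which was 204 bases for SNORA73B and 699 bases for SNORD3A. SNORA73B, an H/ACA RNA linked to ribosomal RNA processing, was at 1516 ± 356 against 1734 ± 219 CPM (log2 difference 0.19, adjusted p 0.353), and SNORA74A at 0.38 (adjusted p 0.112). SNORA74A was called higher in 5 of 14 refits, with adjusted p from 0.00191 to 0.392, and SNORA73B in 2, with adjusted p from 0.0141 to 0.729. SNORD17, at 1848 CPM per kilobase, was at 0.07 (adjusted p 0.658) while its host SNX5 fell by 0.64 (adjusted p 2.86e-05). SNORD118, the U8 RNA of large-subunit processing, was at 0.10 (adjusted p 0.398) and SNORD13 at -0.26 (adjusted p 0.117). The copies of U3 are near-identical and shared fragments were divided among them, so their single values are uncertain.

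**Figure D3:**
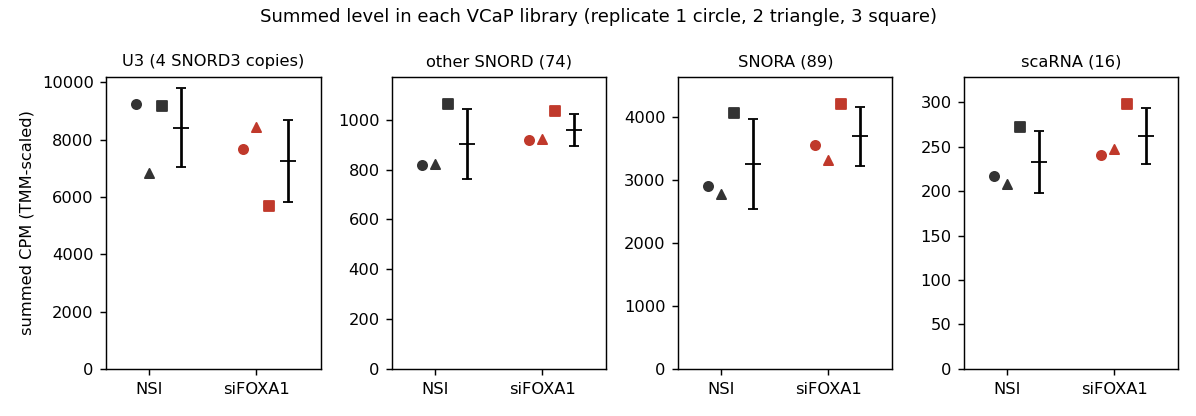
Summed CPM scaled by TMM (vertical axes, each from 0) of the 4 SNORD3 copies, the other 74 SNORD members, the 89 SNORA members and the 16 scaRNA members in each VCaP library, with the mean and SD of 3 replicates. The groups overlap in all 4 panels, and replicate 3 of both groups is high for SNORA and scaRNA members.

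All members together summed to 13202, 10652 and 14597 CPM in NSI and to 12398, 12953 and 11231 CPM in siFOXA1, which was 1.28% and 1.22% of the libraries. The SNORA sum was 2900, 2786 and 4073 CPM against 3557, 3316 and 4215 CPM, and the scaRNA sum 217, 208 and 272 CPM against 241, 248 and 298 CPM. Both overlapped between the groups, and within each group replicate 3 was the highest library.

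Nearly all members lay inside another gene on the same strand. This held for 173 of 187, in 109 hosts, of which 108 were tested, and 6 members touched an exon of their host. Counted once each, 62 hosts were called lower and 8 higher (64.8% called, against 45.8% of all genes), with a median log2 fold change of -0.33. Of the 96 hosts with a mean of at least 10 CPM, 66 were called (68.8%), 59 of them lower (61.5%), against 58.4% called and 34.8% lower among all genes of that level. The member lay above its host in 157 of 172 pairs, by a median of 0.40 on the log2 scale (0.41 in 71 SNORD pairs, 0.35 in 81 SNORA pairs and 0.50 in 16 scaRNA pairs). In total RNA, counts of members in introns do not separate the mature RNA from unspliced host transcript, whose part was not tested. Across the 172 pairs the correlation of both changes was 0.58 by Pearson and 0.50 by Spearman, a description with no test, since pairs share libraries and hosts. Of 107 members in hosts called lower, 12 were called lower, 6 higher and 89 neither, with a median of 0.01 against -0.47 for these hosts. Of 8 members in hosts called higher, 3 were called higher and all 8 had a positive value. Of 57 members in hosts with no call, 4 were called higher and 1 lower. Without replicate 3 of both groups, the members were called in the remaining 4 libraries, while the hosts kept their grouping by calls in all 6 libraries. By this mixed count, 25 of the 107 members were called higher, 11 lower and 71 neither. Of the 8 members 6 were called higher, and of the 57 members 16 were called higher and 1 lower. In those 4 libraries the member lay above its host in 165 of 172 pairs, by a median of 0.42.

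**Figure D4:**
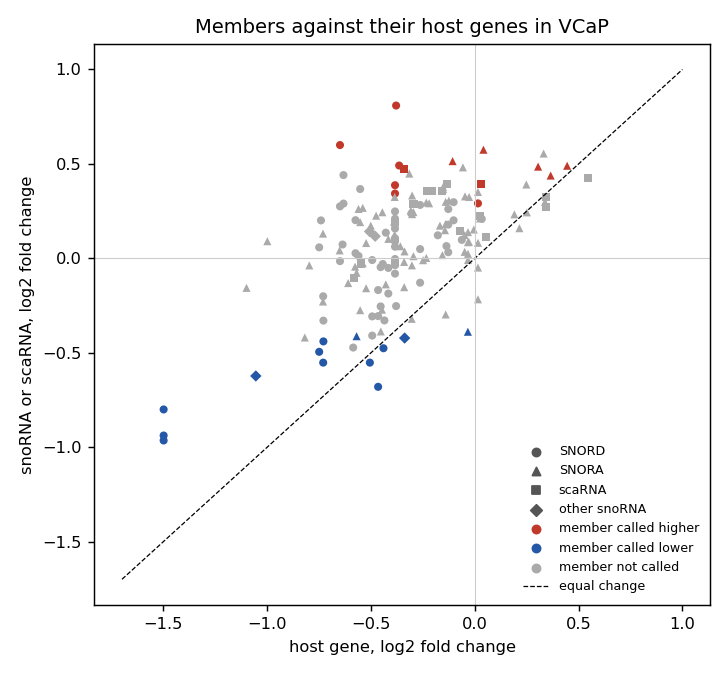
Log2 fold change of each member (vertical axis) against that of its host gene (horizontal axis) for 172 pairs in VCaP, with the class as symbol, the member's call as colour and equal change as a dashed line. In 157 pairs the point lies above the line, and the SNORD88 copies sit at the far left with their host at -1.50.

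Ribosomal protein genes and RACK1 held 43 members in 26 hosts. Of these hosts 23 were called lower, with a median of -0.56, and of their 43 members 6 were called lower and 2 higher, with a median of -0.01. SNORD members in these hosts had 5 called lower and 2 higher of 24, and 1 of 19 SNORA members was called lower. Over all genes tested 23.3% were called lower and 22.5% higher, to be read beside the counts in this paragraph. Without replicate 3 of both groups, a choice made on the members' values, 12 of the 43 were called higher and 5 lower. In that setting 44.7% of all genes tested were called in either direction. SNHG14, the long transcript of the Prader-Willi region, held 18 members with 2 called higher (SNORD116-24, and SNORD108, which lost its call in 12 of 14 refits) and log2 changes from -0.08 to 0.39, while SNHG14 fell by 0.38 (adjusted p 0.0135). SNORD116 copies numbered 28 in the tables, of which 17 were members with a median of 0.10. By contrast none of the 46 SNORD115 rows was a member, the highest standing at 0.0132 CPM, and none of the 15 SNORD113 or 30 SNORD114 rows was. EIF4A2 held 5 members with SNORD2 called, RPL13A 3 with SNORD33 called and ZFAS1 3 with SNORD12C called. The 4 SNORA71 members of RP4-564F22.2 and the 3 members each of RPL3, NOP56, HSPA8, RPL5, RABGGTB and KANSL2 had no call.

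The proteins that bind these RNAs were listed as the other genes of the pathway, to be read against 22.5% of all genes called higher and 23.3% called lower (34.8% lower among genes of at least 10 CPM). Of the 4 C/D core proteins, 3 fell: fibrillarin (FBL) by 0.50 (adjusted p 0.00332), NOP56, which bridges the complex, by 0.42 (adjusted p 0.00185) and SNU13, which binds the box motif, by 0.72 (adjusted p 3.1e-05), while NOP58 stood at -0.03. Of the 4 H/ACA core proteins only NHP2 was called, lower by 0.26 (adjusted p 0.0237), and dyskerin (DKC1), NOP10 and GAR1 were not. FBL had a mean of 61.4 ± 7.01 CPM in NSI and 43.5 ± 5.16 CPM in siFOXA1, and SNU13 65.0 ± 5.63 against 39.4 ± 0.207 CPM (SD, n = 3 each). Of 10 assembly factors, 5 fell (RUVBL1 by 0.44, RUVBL2 by 0.38, PIH1D1 by 0.37, NAF1 by 0.31 and ZNHIT3 by 0.22) and C12orf45 rose by 0.43. Of 15 processing and trafficking factors, 5 fell (33.3%, a share near the background), among them WRAP53, which carries scaRNAs and telomerase RNA to Cajal bodies, by 0.60 and the deadenylase TOE1 by 0.36. Of 18 other short structured RNAs tested, such as spliceosomal, vault and signal recognition particle RNAs, TERC alone was called, and the list's median was 0.22 beside 0.02 for all genes. Their summed level was 103168 to 128877 CPM in NSI and 122767 to 148003 CPM in siFOXA1.

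In PC3 the same genes were read from polyadenylated RNA, in which mature snoRNAs, which carry no poly(A) tail, are depleted. The median level was 0.2727 CPM for SNORD, 0.2016 CPM for SNORA and 0.1183 CPM for scaRNA members in PC3, against 2.871, 6.969 and 10.22 CPM in VCaP, where the members had been chosen for their level. Only 34 members reached 1 CPM in PC3, and 6 were higher there than in VCaP: SNORA69, SNORD36A, SNORD35B, SNORD86, SNORD104 and SNORD50. Of 146 members tested in PC3, 25 were called lower and 2 higher, with a median of -0.42, against 27% of all genes called (15% higher and 12.1% lower). The PC3 count of 25 became 9 without siFOXA1 replicate 1, 11 without siFOXA1 replicate 3, 12 without NSI replicate 3 and 16 each without NSI replicate 1, without NSI replicate 2 or with library size alone in place of TMM. FOXA1 fell in PC3 by 0.65 (adjusted p 0.00222).

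**Figure D5:**
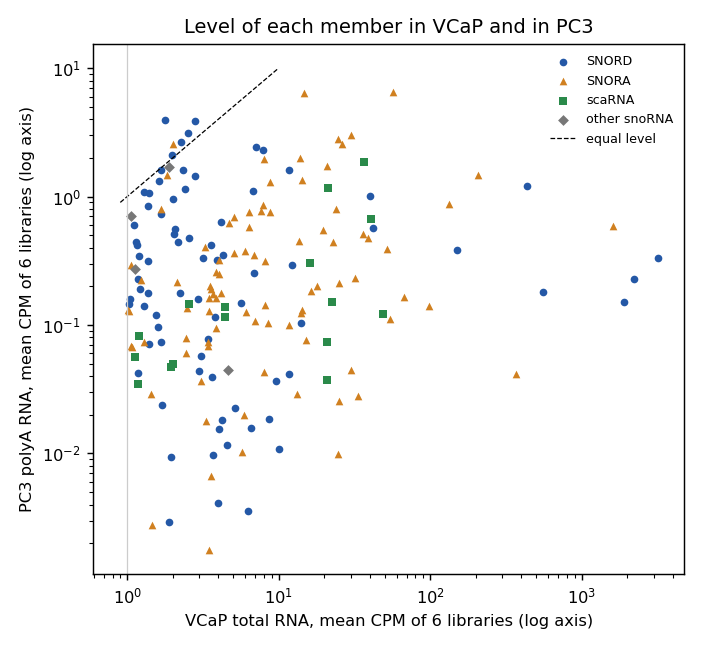
Mean CPM of each member in the 6 PC3 libraries of polyadenylated RNA (vertical log axis) against that in the 6 VCaP libraries of total RNA (horizontal log axis), with the class as symbol and equal level as a dashed line. All but 6 of the 187 members lie below the line, and the U3 genes and SNORA73B lie farthest to the right.

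The response in VCaP minus that in PC3, tested as an interaction over all 12 libraries, was called higher for 27 members and lower for 1 of 187, against 22.2% of all genes called (11.3% higher and 11% lower). The count of 27 became 16 without PC3 siFOXA1 replicate 1 and 42 without VCaP NSI replicate 3, and that of 1 became 3 without PC3 NSI replicate 3 and 2 without PC3 siFOXA1 replicate 3. Of the VCaP calls, 4 were called in the same direction in PC3 (SNORD36A, SNORD35B, SNORD96A and SNORD108) and 2 in the opposite direction (SNORD14B and SCARNA22). The share of all genes called in both lines is not given here, so these counts are a description only. SCARNA22 had a mean of 1.74 CPM in NSI and 0.595 CPM in siFOXA1 in PC3, a fall by 1.54 (adjusted p 0.000641). TERC, which is no member, rose by 0.71 in VCaP and fell by 1.44 in PC3 (adjusted p 0.00686). SNORD96A fell by 0.52 in PC3 (adjusted p 0.0231). The SNORD88 host fell by 0.80 in PC3 (adjusted p 0.00551), where SNORD88A, SNORD88B and SNORD88C stood at -1.45, -0.37 and -0.35 with no call (adjusted p 0.0549, 0.453 and 0.421). The lines differ in kit, dose, medium and use of strand, which cannot be told apart from the cell line.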

How the data were processed

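RNA was sequenced from 12 libraries, 6 of VCaP (total RNA) and 6 of PC3 (polyadenylated RNA). The authors deposited expected counts, 1 table per library, which per the file headers came from featureCounts with exons summed by gene of GENCODE v28lift37 basic on GRCh37. Fragments needed both ends mapped, those with several places or genes were divided, and VCaP but not PC3 was counted by strand, per the file headers. STAR 2.7.3a and Subread 2.0.0 are named in the submitters' processing notes. Size selection in library preparation can lower the counts of genes under 100 bases, which was not tested.

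The deposited counts were rounded and tested with edgeR 4.0.16 (quasi-likelihood, TMM, filterByExpr, two-sided, Benjamini-Hochberg over all genes tested, in R 4.3.3), VCaP alone, PC3 alone and, for the difference, all 12 libraries. A call is an adjusted p under 0.05. DESeq2 1.42.0 and the other settings of the closing section were alternatives. CPM in single libraries was scaled by TMM. The test was checked on simulated data with 200 changed genes. The biological coefficient of variation was 9.9% in VCaP. PC3 held 123140099 to 188226483 counts per library.

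No gene in the tables has the type scaRNA, so scaRNAs were taken by the symbol SCARNA. Members that share a symbol were numbered by position ("copy 1"). The host is the longer gene on the same strand whose span contains the member, the most abundant where several do. Members were named by a rule: the 5 largest called rises and falls in SNORD and SNORA and the 3 in scaRNA, given 5 CPM or more on average and groups that did not overlap, the most abundant per kilobase, fixed names, and members of hosts with 3 or more. The members, lists and rules were chosen with earlier results of these data known. SNORA73A was not analysed here, and values of some marker and host genes are not reported here. All 187 members passed the filter on low counts. Of these, 8 had whole counts in all 6 VCaP libraries and 8 overlapped an exon of another gene on the same strand. Replicates of a group differed beyond sampling noise (chi-square per degree of freedom 9.8 to 35.9 in VCaP).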

Additional observations from a re-analysis of the deposited data

Results flagged for a closer look

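The response in VCaP and that in PC3 differed by the interaction test for 7 members that the text names. In log2 units, VCaP minus PC3, the difference was 2.03 for SCARNA22, 1.17 for SNORD14B, 1.09 for SNORA25, 0.912 for SNORA32, 1.17 for SNORD3B-2, 1.05 for SNORD33 and -1.18 for SNORD108. SCARNA22 and SNORD14B rose in VCaP and fell in PC3, each past the threshold in its own line. SNORD3B-2 had no call in VCaP, and PC3 levels of U3 genes were low. SNORD3A, for example, stood at 0.304 CPM in NSI and 0.154 CPM in siFOXA1 in PC3. SNORD108 rose in both lines, by 0.34 in VCaP and by 1.57 in PC3, where its level was 0.0566 CPM in NSI and 0.173 CPM in siFOXA1. The lines cannot be told apart from the kit, dose, medium and strand use, and the cause was not tested.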

How the results depend on the processing

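No called member that the text names changed direction in the 14 refits. SNORD88A, SNORD88B, SNORD88C, SNORD96A, SNORD58B, SNORD14B, SNORA14B and SCARNA22 kept their calls in all 14 refits, SNORD88B with adjusted p from 4.95e-08 to 0.00979. SNORD108 and snoZ6 each lost theirs in 12. The fit of all 12 libraries called 1 SNORD, 3 SNORA and 1 scaRNA member higher and 0 SNORA lower. With no filter, 14 SNORA members were higher and 6 lower, with 22.5% of SNORA members and 25.7% of all genes called. Upper-quartile factors left 1 SNORA lower. Each replicate 3 sample of VCaP correlated best with its own number in the other group (0.279, deviations from the group means). The samples of replicates 1 and 2 did not (0.0639 and 0.0364 with their own number). With the replicate block 26 SNORA and 7 scaRNA members were called higher and 6 SNORA lower (31.0% of all members, 50.1% of all genes), and the difference between the lines was higher for 47. Not every sample correlated best with its own number. Without replicate 3 of both groups, an alternative added on the values of these members, 12 SNORD, 33 SNORA and 6 scaRNA members were higher. In that setting 44.7% of all genes tested were called. Members of at least 5 CPM gave 2 SNORD higher and 3 lower and 4 SNORA higher. Members of at least 100 bases gave 0 SNORD calls in either direction. Members with whole counts, which were only 1 SNORD, 3 SNORA and 4 scaRNA members, gave 0 calls in either direction in each class. Calls with a log2 change of at least 1 numbered 0 as well, since no member changed by that much. Library size alone gave 16 members lower in PC3. Leaving out 1 replicate gave 2 to 9 SNORD and 1 to 31 SNORA members higher, 8 to 11 SNORD and 0 to 4 SNORA lower, and 1 to 4 scaRNA higher. In PC3 it gave 0 to 2 higher and 9 to 23 lower, and for the difference 16 to 42 higher and 1 to 3 lower. The class medians moved by less than 1 SD between libraries, but over the single libraries left out they ran from -0.01 to 0.09 for SNORD, 0.03 to 0.37 for SNORA and 0.15 to 0.45 for scaRNA members. The causes were not tested, beyond fewer libraries or members where a setting leaves some out. Members near 1 CPM rest on about 50 to 60 counts per library, which limits the size of change that could pass.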
